A study of Mus musculus with 20 samples.

Results

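What an antibody against PD1 adds to treatment with GYY4137 was examined in mouse kidney tumours, by setting 5 tumours of the group GYY_PD1 against 5 of the group GYY_IgG, 10 of the 20 libraries of the study. Protein-coding genes with a deposited TPM of at least 1 in at least 5 of the 20 libraries were tested, which gave 11809 genes of the 18705 nuclear coding genes considered. TPM is the share that a gene takes of all transcripts in a library. Here it was rescaled so that the nuclear coding genes of each library add up to 1000000, and the result is called rescaled TPM. The comparison was also made without GYY_PD1 replicates 1 and 4, a pair of libraries that stand apart from the other 18, which leaves 8 tumours.

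All 20 mice carried kidney tumours grown from MSRT1, a single mouse cell line that the labels call renal medullary carcinoma, a kidney cancer known for loss of the chromatin remodelling subunit SMARCB1. Both groups of the comparison received GYY4137, a compound that slowly releases hydrogen sulfide. GYY_IgG mice had a control antibody (IgG) with it, and GYY_PD1 mice had the antibody against PD1. Veh_IgG and Veh_PD1, with 5 mice each, had the same antibodies with vehicle in place of GYY4137 and serve below as the matching comparison without the donor. Strain, sex, age, dose and time of sampling are not given in the sources used here.

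PD1 is a receptor on activated T cells that dampens their activity when it binds its ligand PD-L1, encoded by Cd274, on tumour or myeloid cells. Blocking it can release T cells to secrete interferon gamma, which acts on tumour and stromal cells and induces chemokines, guanylate-binding proteins, the immunoproteasome and MHC molecules. Bulk RNA of a tumour sums malignant, immune, stromal and neighbouring kidney cells, so fewer cells of a type and less RNA per cell cannot be told apart.

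The epithelial keratin gene Krt8 was at 338 to 817 rescaled TPM in GYY_IgG and at 157 to 755 in GYY_PD1. Which cells its transcripts came from was not tested. Smarcb1 was at 102, 105, 59.4, 85.2 and 95.6 rescaled TPM in GYY_IgG replicates 1 to 5 and at 29.3, 84.7, 84.8, 39.8 and 106 in GYY_PD1 replicates 1 to 5. A value per gene does not show which exons are present, so it does not test for that loss.

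The libraries differed in make-up, and this bears on every value below. Satellite-like gene models, 13 models that resemble the tandem repeat of mouse pericentromeres, took 10.1, 11.1, 54.9, 44.1 and 5.86% of deposited TPM in GYY_IgG replicates 1 to 5. In GYY_PD1 replicates 1 to 5 they took 53.6, 25.8, 41.5, 83.4 and 54.8%. The means were 25.2% ± 22.6 and 51.8% ± 21.2 (SD, n = 5 each), and the difference did not pass an exact two-sided permutation test (p = 0.0952). Without GYY_IgG replicate 3 the same exact test gave p = 0.0476, with a difference of 34.0 percentage points in place of 26.6. Nuclear coding genes held 5.26% of TPM in GYY_PD1 replicate 1 and 2.94% in replicate 4, against 12.3 to 39.7% in GYY_IgG. For replicate 1 the Spearman correlations with the remaining libraries had a median of 0.504, and 832 of the tested genes were listed at 0, and Ccdc107 alone took 20.3% of its coding TPM. Replicate 4 had a correlation of 0.896 and 145 tested genes listed at 0, where the other 18 libraries had correlations of 0.924 to 0.968.

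**Figure D1:**
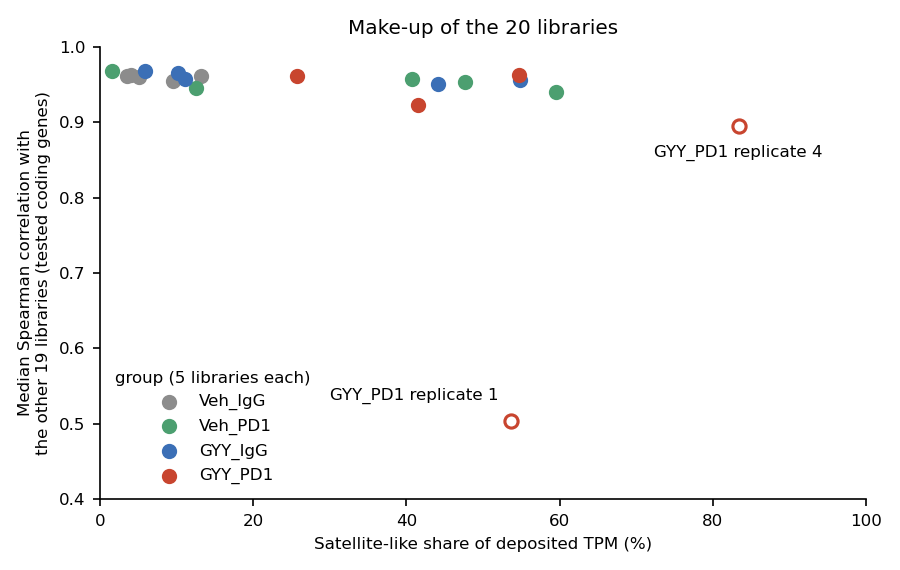
Satellite-like share of deposited TPM (horizontal axis, percent) against the median Spearman correlation of each library with the other 19 over the tested coding genes (vertical axis), 1 point per library, coloured by group. The open points are GYY_PD1 replicate 1, at 53.6% and 0.504, and replicate 4, at 83.4% and 0.896.

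No gene passed the test. With limma over all 20 libraries and Benjamini-Hochberg adjustment, 0 of 11809 genes (0%) had an adjusted p under 0.05, and the smallest adjusted p was 0.378. At an unadjusted p under 0.05 there were 197 genes with a higher mean in GYY_PD1 (1.67%) and 878 with a lower one (7.44%). Centring each library on the median of its tested genes gave 0 calls and a more even split, 470 higher and 612 lower. Single libraries moved the first of these splits. The lower count was 392 to 515 without GYY_IgG replicate 1, 2 or 5 or GYY_PD1 replicate 1, and 1831 to 2235 without GYY_PD1 replicate 2, 3 or 5. The higher count was 97 without GYY_IgG replicate 1, 127 without GYY_IgG replicate 5, and 352 and 324 without GYY_PD1 replicate 2 and 5. Only 2783 genes, 23.6%, had a higher mean log2 value in GYY_PD1, and the median log2 difference over all tested genes was -0.35. Without replicates 1 and 4 that median was -0.02, 0 genes (0%) passed, the smallest adjusted p was 0.950, and 151 genes (1.28%) were higher and 218 (1.85%) lower at an unadjusted p under 0.05. Those 2 counts were 96 and 153 when GYY_IgG replicate 1 was left out as well, 195 and 413 without GYY_IgG replicate 3, 265 and 267 without GYY_PD1 replicate 2, and 89 and 132 without GYY_PD1 replicate 3. With replicates 1 and 4 left out 44.3% of genes had a higher mean in GYY_PD1. Fitting the deposited TPM without rescaling gave 6 calls, with Hba-a2 and Hbb-bs among the 5 lower ones, and weighting the libraries by their spread gave 1, H2-T22. All differences below are therefore given as values, not as changes, with adjusted p-values over all tested genes. In the fit without replicates 1 and 4 these were 0.950 or higher for every gene and are not repeated. With all libraries many genes share the value 0.378, since the adjustment gives neighbours in the ranking the same p.

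Groups of libraries that do not overlap offer a second view of the same values. Every GYY_PD1 library lay above every GYY_IgG library for 29 genes (0.246% of those tested) and below every one for 121 genes (1.02%). With GYY_PD1 replicates 2, 3 and 5 alone, 153 genes (1.3%) lay above and 226 (1.91%) below. An unadjusted limma p under 0.05 in both fits was found for 14 of the 29 and 46 of the 121. Over all 11809 tested genes, 176 had this in the same direction. The overlap and both fits draw on the same libraries, so these counts are no separate support. H2-T22, Cfap126, Tmub1, Cd3g and Chn2 were among those above, and Hoxa11, Zwilch, Mcm10 and Hbb-bt among those below.

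H2-T22, a nonclassical MHC class I molecule recognised by some gamma delta T cells, had the smallest p of the 8-tumour comparison. It was at 66.4, 61.9, 75.5, 64.2 and 71.5 rescaled TPM in GYY_IgG replicates 1 to 5 and at 261, 123, 93.8, 92.8 and 103 in GYY_PD1 replicates 1 to 5. The groups did not overlap, and replicate 1 was far above the rest. The log2 difference was 0.86 (SE 0.23, 95% interval 0.37 to 1.34; limma adjusted p = 0.378), and without replicates 1 and 4 it was 0.64 (SE 0.13, interval 0.37 to 0.90; limma adjusted p = 0.950). With library weights the difference was 0.65 and the adjusted p from limma 0.0476. On deposited TPM it was -0.35, beside -1.17 for the median tested gene. The near copy H2-T10, which can share reads with H2-T22, was at 7.79 to 11.6 rescaled TPM in GYY_IgG. In GYY_PD1 it was at 12.99, 12.4, 5.41 and 11.1 in replicates 2 to 5 and listed at 0 in replicate 1. The sum of both genes was 69.8 to 87.1 in GYY_IgG and 98.2 to 261 in GYY_PD1, which also did not overlap.

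Promoters of 3 interferon-inducible genes are shown because their promoters hold the core of the interferon-stimulated response element, GAAANNGAAA, read on either strand. H2-T22 lies at chr17:36037128-36042747 on the minus strand, H2-T23 at chr17:36029773-36032855 on the minus strand and Gbp2 at chr3:142620602-142638008 on the plus strand of mm10. Each sequence runs from 250 bases before to 50 after the RefSeq start of the gene (RefSeq on GRCm38.p6, the assembly of mm10), and capitals mark the motif, here on the strand opposite to the gene. The windows are chr17:36042693-36042992, chr17:36032652-36032951 and chr3:142620413-142620712.
H2-T22: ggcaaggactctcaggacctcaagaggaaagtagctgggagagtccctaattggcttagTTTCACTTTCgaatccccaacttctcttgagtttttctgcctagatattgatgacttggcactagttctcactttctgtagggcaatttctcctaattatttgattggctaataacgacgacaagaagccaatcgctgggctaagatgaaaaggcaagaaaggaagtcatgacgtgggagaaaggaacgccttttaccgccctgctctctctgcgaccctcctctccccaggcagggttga
H2-T23: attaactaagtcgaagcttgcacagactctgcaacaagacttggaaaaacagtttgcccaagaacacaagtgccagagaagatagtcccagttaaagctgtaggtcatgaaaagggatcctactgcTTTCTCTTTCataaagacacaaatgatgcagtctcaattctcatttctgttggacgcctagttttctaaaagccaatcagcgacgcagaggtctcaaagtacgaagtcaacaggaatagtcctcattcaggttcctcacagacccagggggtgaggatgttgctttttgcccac
Gbp2: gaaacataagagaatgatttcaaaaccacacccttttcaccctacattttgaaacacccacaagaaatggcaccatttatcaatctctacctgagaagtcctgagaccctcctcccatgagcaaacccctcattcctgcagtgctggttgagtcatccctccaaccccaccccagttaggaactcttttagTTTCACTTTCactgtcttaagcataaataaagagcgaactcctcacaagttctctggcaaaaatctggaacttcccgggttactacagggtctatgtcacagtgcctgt
The motif starts at position -191 in H2-T22, -124 in H2-T23 and -59 in Gbp2, counted from the RefSeq start. For H2-T23 and Gbp2 the RefSeq start and the motif lie inside the gene span given above. This motif was found in 11 of the 14 interferon gamma genes below that have a promoter entry (78.6%). It was also found in 10 of 17 type I interferon genes (58.8%) and in 4 of 14 MHC class I genes (28.6%). Of the tested coding genes with an entry, 359 of 9309 held it (3.86%), and of all genes with one, 1079 of 27025 (3.99%). A match of letters is a description and shows no binding.

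Genes induced by interferon gamma had mostly higher means in GYY_PD1. Of 19 tested members of the list, 17 had a higher mean, beside 23.6% of all tested genes, with a median log2 difference of 0.58 beside -0.35. Without replicates 1 and 4 all 19 were higher, beside 44.3% of all genes, with a median of 0.61 beside -0.02. Relative to the library median it was 0.88, and on deposited TPM it was -0.42, above the -1.17 of all genes but below 0. None passed. With all libraries 0 reached an unadjusted limma p under 0.05, where 1.67% of all tested genes were higher at that p. Without the pair 2 did, where 1.28% of all tested genes were higher at that p. The mean log2 level of the list was 4.94, 4.94, 4.63, 4.96 and 4.80 in GYY_IgG replicates 1 to 5. In GYY_PD1 replicates 1 to 5 it was 4.64, 6.28, 5.42, 5.20 and 5.15, so the 4 GYY_PD1 tumours other than replicate 1 lay above every GYY_IgG tumour. Replicate 2 was the highest, and without it the median of the list was 0.23, beside -0.43 for all genes.

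Gbp2, a guanylate-binding protein of cell-autonomous defence, was at 80.0, 61.3, 47.1, 63.6 and 70.1 rescaled TPM in GYY_IgG and at 68.6, 252.1, 108, 107 and 105 in GYY_PD1. Replicate 2 was highest, and replicate 1 alone lay within the GYY_IgG range. The log2 difference was 0.86 (SE 0.44, limma adjusted p = 0.378) and 1.15 (SE 0.49) without replicates 1 and 4. Tgtp2, an interferon-inducible GTPase, was at 22.9998, 21.95, 10.6, 20.3 and 21.4 in GYY_IgG and at 35.2, 113, 32.4, 29.3 and 30.9 in GYY_PD1. Its groups did not overlap, but its close copy Tgtp1 can share its reads, and the log2 difference of 1.09 had an SE of 0.60 (limma adjusted p = 0.378). Cxcl9, a chemokine that draws activated T cells, was at 24.2, 30.5, 12.3, 16.9 and 23.9 in GYY_IgG and at 16.6, 83.9, 32.6, 24.2 and 31.3 in GYY_PD1. Replicate 2 again stood highest, and the log2 difference was 0.62 (SE 0.71, limma adjusted p = 0.544). Ciita, the master switch of MHC class II genes, had means of 7.05 ± 2.17 and 12.4 ± 3.07 rescaled TPM (SD, n = 5), and Gbp5 had 12.8 ± 1.81 and 23.002 ± 7.52.

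Type I interferon genes, an antiviral programme, gave a smaller shift. With all libraries 13 of 22 had a higher mean, beside 23.6% of all tested genes, and the median was 0.05 beside -0.35. Without replicates 1 and 4, 21 of 22 did, beside 44.3% of all genes, and the median was 0.31 beside -0.02. In that fit 5 of the 22 had an unadjusted limma p under 0.05, where 1.28% of all tested genes were higher at that p. On deposited TPM the median was -0.89 beside -1.17. Oasl2, an antiviral relative of the OAS enzymes, was at 40.3, 52.8, 54.5, 51.2 and 35.9 rescaled TPM in GYY_IgG and at 29.8, 95.6, 78.5, 133 and 56.1 in GYY_PD1, with replicate 1 below the whole GYY_IgG group and the other 4 above it. Irf7, the regulator that amplifies type I interferon, had a log2 difference of 0.54 (SE 0.27, limma adjusted p = 0.378), Usp18 one of 0.62 and Ifi44 one of 0.53.

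MHC class I presentation, which carries peptides to CD8 T cells, separated the groups only without replicate 1. Of 15 tested genes, 7 had a higher mean with all libraries, beside 23.6% of all tested genes, with a median of -0.02 beside -0.35. Without replicates 1 and 4 all 15 did, beside 44.3% of all genes, with a median of 0.34 beside -0.02. Of the 15, 6 had an unadjusted limma p under 0.05 in that fit, where 1.28% of all tested genes were higher at that p. The 6 were H2-T22, H2-T23, Tap1, H2-Q6, H2-D1 and B2m, the last 3 named after their values were seen. Without replicate 1 alone the median was 0.28, beside -0.04 for all genes. The mean level of the list was 7.13 to 7.48 on the log2 scale in GYY_IgG and 6.67, 7.99, 7.60, 7.50 and 7.52 in GYY_PD1 replicates 1 to 5. On deposited TPM the list median was -0.99, beside -1.17 for all genes. H2-T23, the mouse Qa-1 that presents to NK and CD8 T cell receptors, was at 107, 83.0, 152, 128 and 109 rescaled TPM in GYY_IgG and at 82.2, 264, 190, 180 and 147 in GYY_PD1. Replicate 1 was the lowest of the 10 tumours, and the log2 difference of 0.50 (limma adjusted p = 0.378) was 0.77 (SE 0.25) without the pair. Psmb9, an immunoproteasome subunit, was at 68.6 to 88.5 in GYY_IgG and at 232, 182, 92.5, 78.2 and 95.6 in GYY_PD1. Tap1, which pumps peptides into the endoplasmic reticulum, had a log2 difference of 0.30 (limma adjusted p = 0.393), and 0.40 without the pair.

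MHC class II genes, carried by antigen-presenting cells, spread widely in both groups. Their median was 0.33 with 7 of 9 higher, 0.74 with 8 of 9 higher without the pair, and -0.75 on deposited TPM. Over all tested genes the median was -0.35 with 23.6% higher, -0.02 with 44.3% higher without the pair, and -1.17 on deposited TPM. Cd74, the invariant chain, was at 724, 702, 366, 218 and 561 rescaled TPM in GYY_IgG and at 258, 1025, 983, 471 and 714 in GYY_PD1. The groups overlapped, and the log2 difference was 0.39 (SE 0.49, limma adjusted p = 0.583). H2-Aa had 0.58 (SE 0.68) and H2-Ab1 had 0.41 (SE 0.59).

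**Figure D2:**
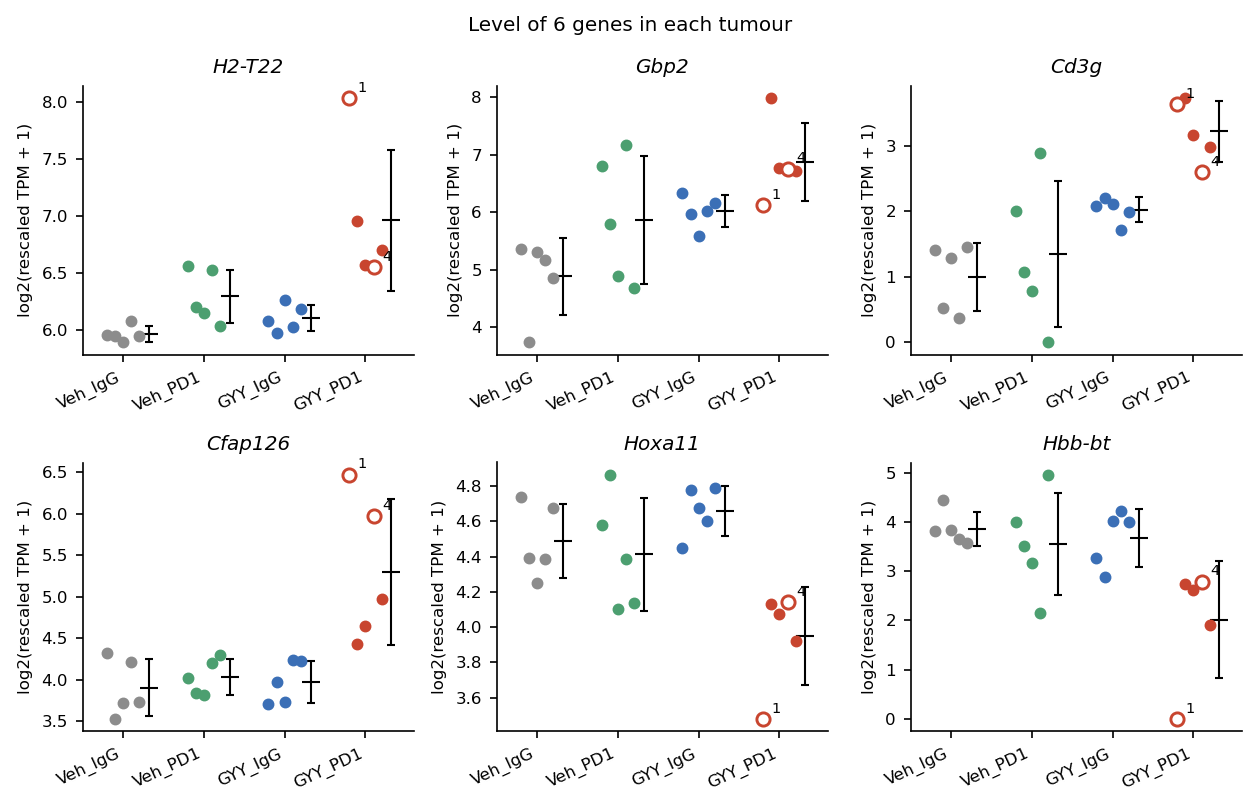
Level of 6 genes in each of the 20 tumours as log2(rescaled TPM + 1), by group, with 1 point per tumour and the mean with its SD (n = 5) in black beside the points. Open points are GYY_PD1 replicates 1 and 4. H2-T22, Cd3g and Cfap126 in GYY_PD1 lie above all GYY_IgG tumours, Hoxa11 and Hbb-bt below all of them, and Gbp2 overlaps through replicate 1. On deposited TPM the sign of the difference of H2-T22 and of Gbp2 turns.

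T cell transcripts were low, and few of the markers passed the filter on low values. Of 18 marker genes 6 were tested, 4 with a higher mean in GYY_PD1 and a median of 0.41 (0.51 without the pair, 5 of 6 higher, and -0.28 on deposited TPM). All tested genes had a median of -0.35 with 23.6% higher (-0.02 without the pair, 44.3% higher, and -1.17 on deposited TPM). Cd3g, a chain of the T cell receptor complex, was at 3.25, 3.62, 3.33, 2.29 and 2.98 rescaled TPM in GYY_IgG and at 11.4, 12.2, 7.99, 5.04 and 6.85 in GYY_PD1. Every GYY_PD1 tumour was above every GYY_IgG tumour, with a log2 difference of 1.19 (SE 0.44, limma adjusted p = 0.378) and 1.26 (SE 0.51) without the pair. Cd2, an adhesion receptor of T and NK cells, was at 1.23, 4.00, 4.03, 2.56 and 2.38 in GYY_IgG and at 5.51, 5.53, 5.96, 6.23 and 4.32 in GYY_PD1, and its groups did not overlap either. Its log2 difference was 0.82 (SE 0.35, limma adjusted p = 0.378), and on deposited TPM -0.04. Cd3e, another receptor chain, was at 2.30 to 7.07 in GYY_IgG and at 15.4, 9.36, 5.59, 5.14 and 5.90 in GYY_PD1, which overlap. Thy1, which fibroblasts also express, had a log2 difference of -0.52 (limma adjusted p = 0.503) and 0.18 without the pair.

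The target of the antibody and the killing machinery lay below the filter and were not tested. Pdcd1, which encodes PD1, was at 1.11, 0.955, 2.18, 1.49962 and 1.51 rescaled TPM in GYY_IgG and at 5.403, 1.99, 6.72 and 1.16 in GYY_PD1 replicates 2 to 5, and was listed at 0 in replicate 1. Cd8a was at 0.823 to 1.79 in GYY_IgG and at 4.01, 9.55, 3.12, 1.04 and 0.678 in GYY_PD1. Gzmb, a protease of cytotoxic granules, was at 0.931 to 5.50 in GYY_IgG and at 1.10 to 5.97 in GYY_PD1. These levels overlapped between the groups. Ifng was at 0.284 to 0.633 in GYY_IgG, at 5.21 and 4.07 in GYY_PD1 replicates 1 and 2 and listed at 0 in replicates 3, 4 and 5. Cd274, encoding PD-L1, was at 30.0, 28.0, 57.8, 51.4 and 23.9 in GYY_IgG and at 9.31, 51.7, 52.9, 70.5 and 31.4 in GYY_PD1. Its log2 difference had an SE of 0.40 and a 95% interval of -0.83 to 0.82, and its sign turned without replicate 1. Havcr2, encoding the checkpoint receptor TIM-3, had a log2 difference of 0.66 (SE 0.35, limma adjusted p = 0.378).

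Markers of other immune cells were mixed. Of 4 tested dendritic cell genes, 2 had a higher mean with all libraries and 2, Fscn1 and Itgax, a lower one. Without the pair 3 of the 4 were higher. Over all tested genes 23.6% were higher with all libraries and 44.3% without the pair. Batf3, a transcription factor of cross-presenting dendritic cells, was at 2.50, 1.65, 7.40, 8.19 and 1.95 rescaled TPM in GYY_IgG and at 42.7, 8.004, 7.22, 26.6 and 11.8 in GYY_PD1. Replicates 1 and 4 were highest, and the log2 difference of 1.82 (SE 0.62, limma adjusted p = 0.378) was 1.09 (SE 0.66) without them. Ccr7, the homing receptor of migrating dendritic cells and naive T cells, was at 0.597 to 7.76 in GYY_IgG and at 77.3, 4.27, 5.82, 8.17 and 6.40 in GYY_PD1, and its log2 difference of 1.63 was 0.93 without replicate 1 and 0.80 without the pair. Ly6c2, a marker of inflammatory monocytes, was at 9.77 to 12.7 in GYY_IgG and at 6.79, 34.9, 15.0, 37.7 and 20.1 in GYY_PD1. Only replicate 1 was not above the GYY_IgG range. Of 8 tested monocyte genes, 4 had a higher mean with all libraries and 4, Fn1 among them, a lower one (median -0.004). Without the pair 7 of the 8 were higher (median 0.37). The list means overlapped, at 4.40 to 5.69 in GYY_IgG and 3.85 to 5.82 in GYY_PD1. Of 16 macrophage genes, 3 had a higher mean with all libraries and 12 without the pair. Lyve1, found on resident macrophages and lymphatic vessels, was at 34.1, 10.6, 14.03, 75.0 and 21.98 in GYY_IgG and at 1.97, 24.03, 24.9, 5.35 and 6.89 in GYY_PD1. Cfb, complement factor B, had a log2 difference of 1.26 (SE 0.45, limma adjusted p = 0.378) and 0.69 without the pair. The NK cell list and the list of mast cells and eosinophils had no tested member.

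Genes of cell division had lower means in GYY_PD1. All 15 tested mitosis genes did, beside 9026 of 11809 tested genes, with a median log2 difference of -0.83 beside -0.35 for all genes. Of the 15, 14 had an unadjusted limma p under 0.05, where 7.44% of all tested genes were lower at that p. Without replicates 1 and 4 all 15 were still lower, beside 6574 of all tested genes, with a median of -0.38 beside -0.02. There 1 gene had an unadjusted limma p under 0.05, where 1.85% of all tested genes were lower at that p. Relative to the library median the list median was -0.53 beside -0.05 for all genes, and on deposited TPM -1.72 beside -1.17. The list mean was 6.28, 6.10, 5.60, 5.73 and 6.07 on the log2 scale in GYY_IgG and 3.03, 5.52, 5.45, 5.18 and 5.82 in GYY_PD1. Without replicate 1 alone the median of the list was -0.44, beside -0.04 for all genes. The 2 GYY_IgG tumours with the lowest values, replicates 3 and 4, were also those with satellite-like shares of 54.9 and 44.1%. With that share as a covariate the median of the list was -0.61 beside -0.32 for all genes. The part of that share in the result was not tested further.

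Mki67, the proliferation antigen Ki-67, was at 180, 163, 98.2, 106 and 136 rescaled TPM in GYY_IgG and at 28.6, 84.3, 93.2, 78.9 and 125 in GYY_PD1. The groups overlapped through replicate 5, and the log2 difference was -0.83 (SE 0.32, limma adjusted p = 0.378), and -0.41 (SE 0.24) without the pair. Ccnb1, the cyclin that drives entry into mitosis, was at 69.8, 55.3, 59.5, 42.5 and 61.5 in GYY_IgG and at 10.5, 39.1, 42.9, 16.5 and 46.1 in GYY_PD1. Its log2 difference was -1.06 (SE 0.33, limma adjusted p = 0.378), and -0.41 without the pair. Zwilch, a kinetochore protein of the spindle checkpoint, was at 35.5, 30.7, 30.6, 37.0 and 35.6 in GYY_IgG and at 12.2, 20.9, 21.7, 25.3 and 23.3 in GYY_PD1. Its groups did not overlap, with a log2 difference of -0.72 (SE 0.22, limma adjusted p = 0.378) and -0.60 (SE 0.20) without the pair. Mcm10, needed to start DNA replication, was likewise lower in every GYY_PD1 tumour, at 21.6 to 27.5 in GYY_IgG and 7.17 to 20.04 in GYY_PD1. Cenpn of the centromere, Haus3 of the spindle-nucleating augmin complex and Chtf18, a loader of the replication clamp, had log2 differences of -1.06, -0.86 and -0.66, and -0.58, -0.35 and -0.51 without the pair.

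Other lists of growth were also mostly lower with all libraries. Of the 11809 tested genes, 9026 had a lower mean with all libraries (median -0.35) and 6574 without the pair (median -0.02). Of 15 DNA replication genes 14 were lower with all libraries (median -0.73), and all 15 were without the pair (median -0.20). All 14 MYC and nucleolar genes had a lower mean in both fits, with medians of -0.66 and -0.23. Cytosolic ribosomal protein genes had a lower mean in 18 of 18 cases with all libraries (median -0.58) and in 8 of 18 without the pair (median 0.01). Lists outside growth had medians of similar size with all libraries, -0.64 for the integrated stress response, -0.65 for heat shock proteins and -0.72 for oxidative phosphorylation, which were -0.11, -0.18 and -0.07 without the pair. Tyms, which makes thymidylate for DNA, was at 36.0 to 50.7 rescaled TPM in GYY_IgG and at 1.79, 42.4, 24.5, 14.5 and 44.6 in GYY_PD1. Mcm5, part of the replicative helicase, was at 74.6 to 116 in GYY_IgG and at 15.0, 73.4, 70.4, 69.2 and 90.6 in GYY_PD1. Replicate 5 was the only GYY_PD1 tumour inside the GYY_IgG range for Mcm5.

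Haemoglobin genes, transcribed in red cell precursors and carried in blood, had the lowest list median. All 6 tested erythroid genes had a lower mean with all libraries, beside 9026 of 11809 tested genes, with a median of -2.05 beside -0.35. Of the 6, 4 had an unadjusted limma p under 0.05, where 7.44% of all tested genes were lower at that p. All 6 were also lower without the pair, beside 6574 of all tested genes, with a median of -1.36 beside -0.02. There 5 had an unadjusted p under 0.05, where 1.85% of all genes were lower at that p. On deposited TPM all 6 were lower too, with a median of -1.92 beside -1.17. Without replicate 1 alone the median was -1.24, beside -0.04 for all genes. Hbb-bs, adult beta globin, was at 250, 128, 505, 466 and 492 rescaled TPM in GYY_IgG and at 172, 179, 178 and 24.5 in GYY_PD1 replicates 2 to 5, and was listed at 0 in replicate 1. GYY_IgG replicate 2 overlapped the GYY_PD1 group. The log2 difference was -2.94 (SE 1.01, limma adjusted p = 0.378), and -1.82 (SE 0.61) without the pair. Hba-a1, alpha globin, was at 98.5, 43.4, 164, 178 and 182 in GYY_IgG and at 62.4, 74.8, 83.4 and 11.5 in GYY_PD1 replicates 2 to 5, again listed at 0 in replicate 1. Hbb-bt was at 6.32 to 17.7 in GYY_IgG and at 2.76 to 5.91 in GYY_PD1 replicates 2 to 5, so its groups did not overlap. Hba-a1 and Hba-a2, and Hbb-bs and Hbb-bt, are near copies, so the split within each pair is uncertain. Alas2, which starts haem synthesis in red cell precursors, was at 18.3 in replicate 1, above all GYY_IgG tumours, and its log2 difference was -0.48 with all libraries and -1.16 without the pair. In vehicle-treated mice the median of the erythroid list for Veh_PD1 against Veh_IgG was -0.32.

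Fat and kidney tubule markers were high in single tumours. Adipoq, the fat hormone adiponectin, was at 0.14, 5.82, 0.582, 3.84 and 11.5 rescaled TPM in GYY_IgG and at 5.92, 423, 5.404 and 10.4 in GYY_PD1 replicates 2 to 5, and was listed at 0 in replicate 1. Cfd, the fat cell protease adipsin, reached 1502 in GYY_PD1 replicate 3 and at most 60.7 in any of the other 9 tumours. Cidec, a protein of lipid droplets, reached 363 there. The adipocyte list had a median of 1.14 with 6 of 7 higher, and 1.79 with 7 of 7 higher without the pair. Over all tested genes the median was -0.35 with 23.6% higher, and -0.02 with 44.3% higher without the pair. Without GYY_PD1 replicate 3 the adipocyte median was -0.03, beside -0.45 for all genes. The adipocyte list mean of that tumour, 8.98, compares with 2.54 to 5.00 in GYY_IgG. Among 10 proximal tubule genes 9 had a higher mean with all libraries, with a median of 1.19. Without GYY_PD1 replicate 3 the median was -0.45 for all genes and 0.24 for the tubule genes. Their list mean was 5.81 in GYY_IgG replicate 2 and 6.23 in GYY_PD1 replicate 3, and 2.02 to 4.53 in the other 8 tumours. Slc5a2, the glucose transporter SGLT2, was at 176 in GYY_PD1 replicate 1 and 26.0 in replicate 4, against at most 7.71 in the other 8. Pck1, an enzyme of glucose synthesis, was at 304 in GYY_PD1 replicate 3. Neutrophil genes had list means of 4.05, 3.89, 6.53, 6.27 and 4.10 in GYY_IgG replicates 1 to 5 and of 0.798, 5.87, 5.70, 7.92 and 4.52 in GYY_PD1 replicates 1 to 5, with replicate 4 highest and replicate 1 lowest of the 10 tumours. The part of these tissues in the differences of other genes was not tested.

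**Figure D3:**
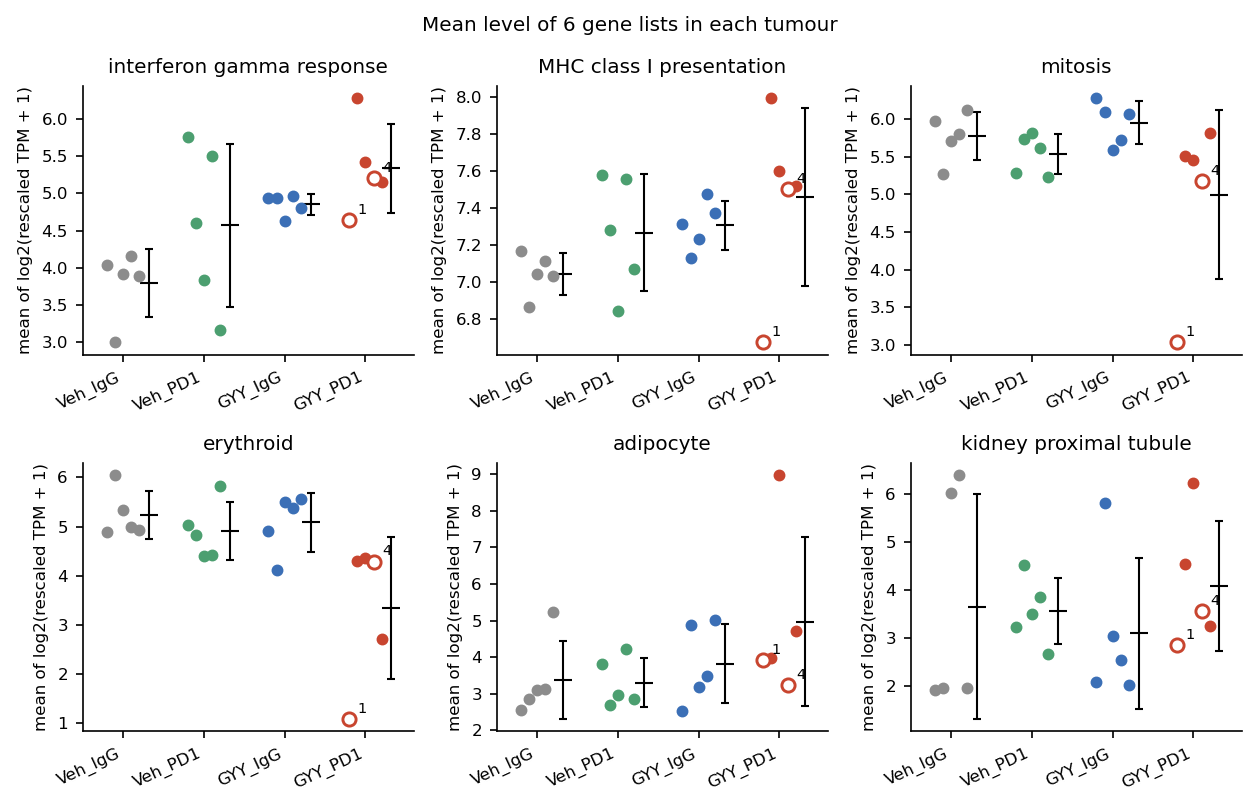
Mean of log2(rescaled TPM + 1) over the tested members of 6 gene lists in each of the 20 tumours, by group, with the mean and SD of each group (n = 5) in black and GYY_PD1 replicates 1 and 4 as open points. Replicate 1 is the lowest of all 20 tumours for MHC class I presentation, mitosis and erythroid genes, and GYY_PD1 replicate 3 is the highest for adipocyte genes (8.98). On deposited TPM the medians of the interferon gamma and MHC class I lists are below 0 (-0.42 and -0.99), beside -1.17 for all tested genes.

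The enzymes that make and oxidise sulfide, the genes closest to the donor itself, had a median log2 difference of -0.56 with all libraries and -0.12 without the pair. Cth, which makes sulfide from cysteine, was at 105, 102, 73.1, 80.4 and 82.2 rescaled TPM in GYY_IgG and at 10.5, 87.2, 84.9, 71.6 and 85.4 in GYY_PD1. Replicate 1 was far below the rest, and without the pair the log2 difference was -0.03 (SE 0.15). Mpst, a further sulfide-producing enzyme, had -0.80 (limma adjusted p = 0.378), and 0.05 without the pair. Cbs was at 1.35 to 17.5 in GYY_IgG and at 2.08 to 24.9 in GYY_PD1, and the sign of its difference turned under several settings. Ethe1, which oxidises persulfide in mitochondria, had -0.75 (SE 0.36, limma adjusted p = 0.378) and -0.30 without the pair.

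NRF2 targets, the antioxidant programme that sulfide can induce, had medians of -0.57 and -0.12 in the 2 fits, and nuclear genes of oxidative phosphorylation had -0.72 and -0.07. Srxn1, which repairs oxidised peroxiredoxins, was at 121 to 234 rescaled TPM in GYY_IgG and at 24.8, 153, 127, 123 and 179 in GYY_PD1. Gsr, glutathione reductase, had a log2 difference of -0.56 (limma adjusted p = 0.378), and -0.23 without the pair. Cyc1 and Ndufb5, subunits of respiratory complexes III and I, had -0.47 and -0.59, and -0.20 and -0.21 without the pair. With all libraries these medians stand beside -0.35 for all tested genes, and without the pair beside -0.02. GYY_PD1 replicate 1 was the lowest tumour for all 3 lists.

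**Figure D4:**
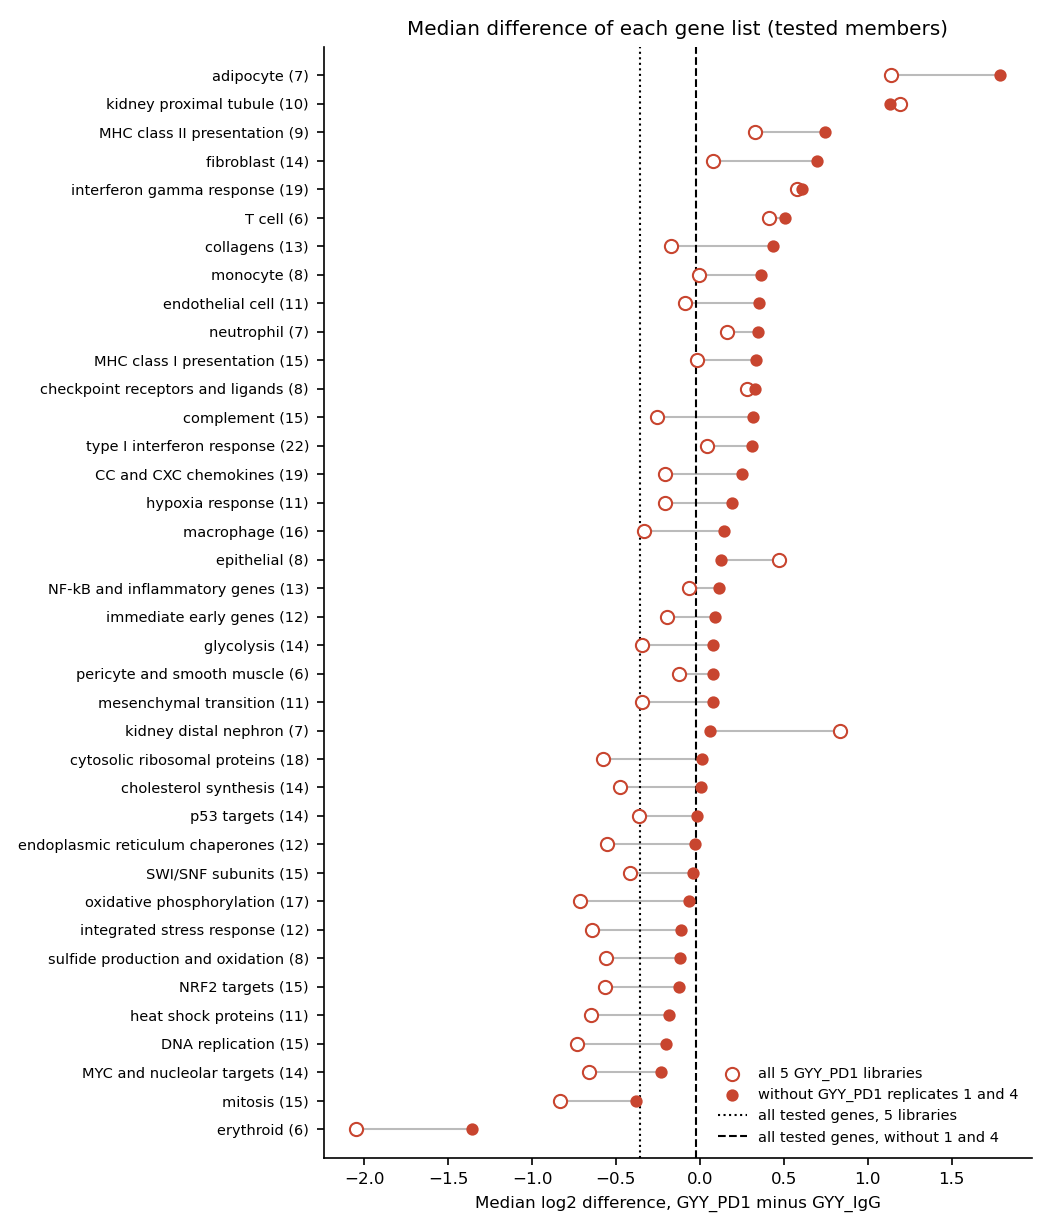
Median log2 difference, GYY_PD1 minus GYY_IgG, of the tested members of 38 gene lists with at least 6 tested members (number in brackets), with all 5 GYY_PD1 libraries (open) and without replicates 1 and 4 (filled). Vertical lines give the median of all tested genes, -0.35 (dotted) and -0.02 (dashed). Erythroid and mitosis genes lie to the left of both lines in both fits and interferon gamma genes to the right. On deposited TPM the interferon gamma median was -0.42 beside -1.17 for all genes.

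Outside the lists, the genes with the smallest p and a mean of at least 5 rescaled TPM were led by Cfap126, a protein of motile cilia. It was at 12.1, 14.8, 12.3, 17.8 and 17.7 rescaled TPM in GYY_IgG and at 87.6, 20.6, 23.97, 61.8 and 30.5 in GYY_PD1. The groups did not overlap and replicates 1 and 4 were highest, with a log2 difference of 1.32 (SE 0.31, limma adjusted p = 0.378) and 0.71 (SE 0.20) without them. Tmub1, a membrane protein with a ubiquitin-like domain, was at 3.92 to 6.27 in GYY_IgG and at 22.8, 7.23, 10.9, 11.1 and 9.48 in GYY_PD1, with log2 differences of 1.10 and 0.80. Chn2, a GTPase-activating protein for Rac, was at 2.09, 4.76, 5.76, 3.13 and 4.35 in GYY_IgG and at 15.5, 14.1, 9.96, 12.3 and 10.5 in GYY_PD1, which did not overlap. Its log2 difference of 1.46 (SE 0.42, limma adjusted p = 0.378) was 1.36 (SE 0.49) without the pair. Mfng, which modifies Notch receptors, was at 1.96 to 4.43 in GYY_IgG and at 6.35, 4.22, 17.1, 9.05 and 7.49 in GYY_PD1. Ccdc74a, Tmco6, Kifc2, Spata25 and Ccdc17 were the others with a higher mean, with log2 differences of 0.80 to 2.61. For these 5 genes GYY_PD1 replicate 1 or 4 was the highest of the 10 tumours, and replicate 1 reached 194 for Spata25 and 89.1 for Ccdc74a.

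Hoxa11, a homeobox gene of kidney and limb development, had the smallest p among genes with a lower mean. It was at 20.8, 26.4, 24.5, 23.3 and 26.6 rescaled TPM in GYY_IgG and at 10.2, 16.5, 15.9, 16.6 and 14.1 in GYY_PD1. The groups did not overlap, and the log2 difference was -0.71 (SE 0.18, limma adjusted p = 0.378) and -0.62 (SE 0.16) without the pair. Fastkd5, which processes mitochondrial RNA, was at 8.97 to 11.8 in GYY_IgG and at 2.04, 9.33, 5.49, 4.09 and 5.65 in GYY_PD1.

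Leaving out replicates 1 and 4 brought forward other genes with small differences and narrow spread. Nod1, a sensor of bacterial cell walls, was at 10.1 to 12.2 rescaled TPM in GYY_IgG and at 1.41, 15.5, 25.8, 11.9 and 18.2 in GYY_PD1. Its log2 difference was 0.03 with all libraries and 0.78 (SE 0.21) without the pair. Trim13, a ubiquitin ligase of the endoplasmic reticulum, was at 3.27 to 4.34 in GYY_IgG and at 3.91, 8.23, 8.35, 4.34 and 9.004 in GYY_PD1. Tcp11l2, Dmac2, Arl10, Hspb2 and Izumo4 were the others with a higher mean, with log2 differences of 0.54 to 1.11 in that fit. Tcp11l2 and Dmac2 were listed at 0 in replicate 1. Nup35, a protein of the nuclear pore, was at 43.2 to 48.4 in GYY_IgG and at 31.8, 26.2, 19.4 and 38.6 in GYY_PD1 replicates 2 to 5, and was listed at 0 in replicate 1. Its groups did not overlap, and without the pair the log2 difference was -0.53 (SE 0.13). Med10 of the Mediator complex, Tsr1 of ribosome assembly, the Golgi adaptor Gga2, the nuclear pore protein Aaas, Sac3d1, Lamtor4 and the paraspeckle protein Pspc1 were the others with a lower mean, with log2 differences of -0.70 to -0.39. For Tsr1 and Lamtor4 replicate 1 was the highest of the 10 tumours, at 267 and 158.

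The same antibody comparison in vehicle-treated mice, Veh_PD1 against Veh_IgG, shares no library with this one. It gave 0 called genes of 11809 (0%) with limma, with 48 higher and 35 lower at an unadjusted p under 0.05. These p-values use a spread estimated over all 20 libraries, and the counts were 203 and 344 without GYY_PD1 replicate 1 and 260 and 394 without replicates 1 and 4, with 0 calls in both. Interferon gamma genes had a median log2 difference of 0.64 there, all 19 with a higher mean beside 40.1% of all tested genes. MHC class I genes had 0.21 with 12 of 15 higher, and mitosis genes -0.24 with 0 of 15 higher. H2-T22 was at 61.0, 60.5, 58.2, 66.7 and 60.6 rescaled TPM in Veh_IgG and at 93.1, 72.6, 70.02, 90.9 and 64.5 in Veh_PD1, with a log2 difference of 0.33. Cfap126 was at 10.5 to 19.1 in Veh_IgG and 13.05 to 18.7 in Veh_PD1, and Hoxa11 at 18.02 to 25.7 and 16.2 to 28.1, with overlapping groups in both cases.

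Whether the antibody difference itself depends on the donor was tested as an interaction. No gene passed with limma, 0 of 11809 (0%), the smallest adjusted p was 0.794, and 50 genes were higher and 106 lower at an unadjusted p under 0.05. For H2-T22 the interaction was 0.53 (SE 0.33, limma adjusted p = 0.794), and for Gbp2 it was -0.12 (SE 0.62, adjusted p = 0.930). Cfap126 had 1.19 (SE 0.44, adjusted p = 0.794) and Hoxa11 -0.63 (adjusted p = 0.794). The list medians of the interaction were -0.27 for interferon gamma genes and -0.64 for mitosis genes beside -0.31 for all genes. Without replicates 1 and 4 they were 0.07 and -0.15 beside 0.02. Among the smallest p values were those of Odf3l1 (1.26), the proton channel Hvcn1 (2.42), the fatty acid binding protein Fabp3 (2.93) and Ccdc17 (1.48), with Tmub1 at 1.08 on the log2 scale. Otud3, a deubiquitinase, had -0.80, the histone chaperone partner Hirip3 -1.02, Fastkd5 -1.15, Itih4 -1.31 and the mitochondrial import chaperone Timm9 -1.21.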

How the data were processed

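Bulk RNA of 20 tumours, 1 library per biological replicate in the labels, was analysed from a table in which the authors deposited log2 TPM for 34234 genes, with a value of 0 written as -8.88. The submitters' processing notes list the trimmers cutadapt and fastp, the quantifier Salmon 0.14.1, the counter HTSeq 0.11.0 and the build mm10; whether Salmon or HTSeq gave the TPM is not stated. TPM keep no read numbers, so the depth is unknown and counting error could not be computed. Positions and gene types were taken from GENCODE M21 (33928 names matched). Constant and variable segments of immunoglobulins and T cell receptors are not of the protein-coding type and were not tested.

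Values were raised back from log2, rescaled per library to 1000000 over 18705 nuclear coding genes (13 satellite-like models and 1101 olfactory and vomeronasal receptor genes left out), and taken as log2(value + 1). limma 3.58.1 (R 4.3.3) fitted 1 model of the 4 groups over 20 libraries with trended shrinkage, and calls were Benjamini-Hochberg adjusted p under 0.05 over 11809 genes. Folds on this scale understate the change of low genes. Exact permutation tests used SciPy 1.17.1 (Python 3.11.15), two-sided. Satellite-like models have a tandem repeat of 225 to 240 bases with at least 50% identity in transcripts of at least 400 bases and share at least 10 words of 12 bases with Gm10800.

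The members and the 48 gene lists were chosen with earlier results of these data known, so lists are described by counts and medians. Since no gene passed, the named genes are, in the fits with and without replicates 1 and 4, up to 10 per direction with the smallest p and a mean of at least 5 rescaled TPM, up to 5 per direction for the interaction, up to 4 members per named list with the smallest p, and Pdcd1, Cd274, Smarcb1, Cxcl9, Cd3e, Cd8a, Gzmb, Ifng, Cbs, Cth and Mpst. Provisional names were left out, and 1 gene that the rule names is not reported here. Krt8, H2-T10, Ccdc107, Alas2, H2-Q6, H2-D1 and B2m were named after their values were seen. Alternatives were other pseudocounts, filters, scalings, weights, a block, a covariate and libraries left out.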

Additional observations from a re-analysis of the deposited data

Results flagged for a closer look

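Among 110 sets of 5 values (list means, library measures and gene levels of GYY_IgG and GYY_PD1), 23 had 1 tumour whose gap to its neighbour was large against the range of its group, where chance gives about 1 in 20. Of these, 18 were GYY_PD1 replicate 1.

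GYY_PD1 replicate 1 lay below its group for the median log2 level of the tested genes (3.76) and the median of its Spearman correlations with the remaining libraries (0.504), and above it for the share of coding TPM held by its 10 most abundant genes (33.9%). Its list means on the log2 scale lay below those of the other 4 tumours for type I interferon response (3.84), sulfide production and oxidation (3.20), NRF2 targets (4.61), oxidative phosphorylation (4.53), glycolysis (6.56) and mitosis (3.03). The same held for DNA replication (4.79), cytosolic ribosomal proteins (6.92), p53 targets (3.85), MYC and nucleolar targets (4.82) and integrated stress response (5.07). It also held for endoplasmic reticulum chaperones (5.61), heat shock proteins (5.42) and SWI/SNF subunits (4.46). H2-T22 lay above the other 4 in this tumour, at a log2 level of 8.03.

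GYY_PD1 replicate 3 lay above its group for adipocyte genes (8.98) and below it for the single tested pancreas gene (5.19). GYY_IgG replicate 2 lay above its group for kidney proximal tubule genes (5.81) and for pericyte and smooth muscle genes (3.76), and GYY_IgG replicate 3 for immediate early genes (5.80).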

How the results depend on the processing

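Counts of calls with limma stayed at 0 under all alternatives except deposited TPM and library weights. On deposited TPM without rescaling there were 6 calls for GYY_PD1 against GYY_IgG, 3 for the interaction, 6 for Veh_PD1 against Veh_IgG and 8 without GYY_PD1 replicates 1 and 4. Library weights gave 1 call in the first of these. The satellite-like difference of 26.6 percentage points was 18.7 to 34.0 when single libraries were left out and 15.4 without GYY_PD1 replicates 1 and 4, passing only without GYY_IgG replicate 3. On deposited TPM the list medians were -0.42 for interferon gamma, -0.99 for MHC class I and -1.72 for mitosis genes. Of 1804 values of named genes under the alternatives 1727 kept direction and side of the threshold, 74 turned sign and 3 passed. All 210 values of the interaction genes kept theirs, and of 1012 list medians 41 moved by more than the spread between replicates. The cause of these turns was not tested.

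On deposited TPM, where the median of all genes was -1.17, the log2 difference turned for H2-T22 (-0.35), H2-T23 (-0.69), Psmb9 (-0.58), Tap1 (-0.88), Ciita (-0.23), Gbp2 (-0.34), Gbp5 (-0.29), Tgtp2 (-0.0487), Cxcl9 (-0.39), Irf7 (-0.64), Usp18 (-0.53), Oasl2 (-0.55), Ifi44 (-0.58), H2-Aa (-0.66), Cd74 (-0.86), H2-Ab1 (-0.80), Cd2 (-0.0384), Cd3e (-0.0641), Havcr2 (-0.24), Ly6c2 (-0.22), Tmco6 (-0.22), Tcp11l2 (-0.39), Trim13 (-0.0907), Nod1 (-0.47), Arl10 (-0.11) and Tsr1 (-0.95). Without GYY_PD1 replicates 1 and 4 it turned for Thy1 (0.18), Cd274 (0.29), Mpst (0.0525), Smarcb1 (0.0579), Dmac2 (0.54) and Tsr1 (-0.46). Without GYY_PD1 replicate 1 and GYY_IgG replicate 5 it turned for Thy1 (0.11), Cd274 (0.31), Dmac2 (0.49) and Tsr1 (-0.34). Library weights turned Cd274 (0.56), Dmac2 (0.52) and Tsr1 (-0.37). Values relative to the library median turned Cd274 (0.30), Cbs (0.17) and Lamtor4 (0.30). A pseudocount of 5 turned Cd274 (0.0264) and Lamtor4 (0.0135), a pseudocount of 0.1 Tcp11l2 (-0.56) and Nod1 (-0.0466), and the satellite-like share as a covariate Tcp11l2 (-0.0794). With single libraries, or GYY_PD1 replicate 1 with GYY_IgG replicate 5, left out the range was -0.0234 to 0.85 for H2-Ab1, -0.98 to 0.11 for Thy1, -0.24 to 0.46 for Cd274, -0.63 to 0.17 for Cbs, -0.24 to 0.94 for Tcp11l2, -0.25 to 0.64 for Nod1, -0.91 to 0.49 for Dmac2, -0.34 to 0.38 for Tsr1 and -0.47 to 0.22 for Lamtor4.

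The replicate numbers of the labels do not pair the libraries: deviations of same-numbered libraries from their group means correlated at -0.13, 0.01, -0.27, 0.16 and 0.27, and 2 of 5 matched their own number best. With the replicate number as a block there were 0 calls, with 201 higher and 849 lower at an unadjusted p under 0.05. Without the filter on low values those counts were 1558 and 886, with the satellite-like share as a covariate 52 and 94, and in a fit of the 10 libraries alone 94 and 84. The first of these settings tested 18705 genes. The alternatives of the fit without GYY_PD1 replicates 1 and 4 were chosen after seeing the data. With 5 tumours a group and a shared spread widened by replicates 1 and 4, a p above the threshold does not show that a gene is equal in both groups.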

Other observations

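A few gene models took an unusual share of GYY_PD1 replicate 1. Ccdc107 held 20.3% of its coding TPM and at most 0.078% in any of the other 9 tumours of the comparison. Tlcd1, a membrane lipid gene, held 0.785% there and at most 0.00188% in the others. The other 8 of its 10 most abundant coding models carry provisional names.

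Stromal genes were described in no comparison above. Of 14 fibroblast genes, 9 had a higher mean in GYY_PD1 with all libraries (median log2 difference 0.08) and 13 without replicates 1 and 4 (median 0.70). Over all tested genes 23.6% were higher with all libraries (median -0.35) and 44.3% without the pair (median -0.02). The fibroblast list median was -0.69 without GYY_PD1 replicate 3 and -0.04 without GYY_PD1 replicate 5, beside -0.45 and -0.44 for all genes. It was -0.36 and -0.26 without GYY_IgG replicates 1 and 3, beside -0.35 and -0.36 for all genes. The fibroblast list mean was 6.98 in GYY_PD1 replicate 3, also the tumour highest in adipocyte genes, 2.83 to 4.15 in the other 4 GYY_PD1 tumours and 2.55 to 5.41 in the 5 GYY_IgG tumours. Complement genes, beside the same shares and medians of all genes, had a median of -0.26 with 5 of 15 higher. Without the pair it was 0.32 with 14 of 15 higher. The complement list median was 0.28 without GYY_PD1 replicate 1 alone and -0.57 without GYY_PD1 replicate 3, beside -0.04 and -0.45 for all genes. It was 0.25 with library weights and 0.05 relative to the library median, beside -0.06 and -0.05. On deposited TPM with all libraries the medians of both lists were below 0, at -0.49 and -1.12, beside -1.17 for all genes. Sqor, which oxidises sulfide, was the 1 gene of its 8 tested list members with an unadjusted limma p under 0.05 without the pair. Its log2 difference there was 0.51, where 1.28% of all tested genes were higher at that p. With all libraries all 8 genes of that list had a lower mean, so the sign of Sqor turned. Sqor was named after its values were seen.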
